A study of Mus musculus with 12 samples.

Results

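The genes described here are those of the muscle nicotinic acetylcholine receptor and of the embryonic or denervated muscle fibre. They were taken from the count table by symbol: the receptor subunits Chrna1, Chrnb1, Chrnd, Chrne and Chrng, the receptor kinase Musk, the adhesion molecule Ncam1 and the transcription factor Runx1. These are 8 of 24062 gene symbols, and all of them were present in the table.

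RNA was sequenced from whole hearts of 12 mice, 1 library per mouse and 3 mice per group, to ask how a defect of the nuclear envelope protein LEMD2 alters the cardiac transcriptome. Adult mice, 2 months old, were either WT or KI/KI, that is homozygous in every tissue for the c.T38>G substitution in Lemd2. Mice at postnatal day 1 (P1) were either Lemd2-floxed, carrying loxP sites around the first exon, or cKO, in which Cre driven by the cardiac Myh6 promoter deletes the floxed allele in cardiomyocytes while other cells of the heart keep it. The adult and P1 controls differ in mouse line as well as in age. Lemd2 itself was at 33.2 ± 1.41 CPM (mean ± SD, n = 3) in WT, 25.2 ± 0.418 in KI/KI, 24.9 ± 0.538 in floxed and 10.4 ± 3.38 in cKO hearts.

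The muscle acetylcholine receptor is a pentamer of alpha, beta and delta subunits together with a gamma subunit in the fetus or an epsilon subunit in the adult. In skeletal muscle it is the ion channel whose opening starts contraction, and the MUSK kinase gathers it under the nerve ending. After denervation, or before innervation, the fibre makes Ncam1, Runx1 and receptor genes other than that of the adult epsilon subunit along its whole length. The heart is innervated differently, and its acetylcholine acts mainly on the muscarinic receptor encoded by Chrm2.

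Levels are given in CPM, counts scaled to a common library size after TMM normalization over the 12 hearts. Library totals ran from 37063669 to 44789753, and 3 counts, used as a floor, corresponded to between 0.0599 and 0.0965 CPM. Floors and count ratios cover counting error only. The libraries of 1 group were different mice, and no pair of them held the same counts. In P1 cKO replicate 4, Xist was at 612 CPM, beside at most 2.02 CPM in the other 11 libraries, and the mean log2 level of Y-linked genes was -3.92, beside 5.56 to 6.25, so this mouse differed in sex from the rest. In bulk hearts, fewer cells of a type and less RNA per cell cannot be told apart.

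The upstream sequence is shown first for the 3 receptor subunits whose levels did not overlap between mutant and control hearts of 1 age. These were Chrna1 in adult hearts, and Chrnb1 and Chrne at P1. Among all genes tested, 21.8% in adult hearts and 39.0% at P1 had no such overlap. Of the 3, edgeR called only Chrnb1, and Chrne had too few counts for that test. Each sequence is the stretch of 150 bases just before the transcript start in RefSeq (build GRCm38.p6). It is written 5' to 3' on the coding strand, which is the minus strand for all 3. Capitals mark E-boxes, CANNTG, the motif bound by the myogenic factors of the MyoD family, and in Chrne also the N-box core TTCCGG, here read on the other strand as CCGGAA. The last 29 bases for Chrnb1 and 22 for Chrne lie inside the span of another annotated transcript of the gene.
Chrna1, chr2:73580339-73580488: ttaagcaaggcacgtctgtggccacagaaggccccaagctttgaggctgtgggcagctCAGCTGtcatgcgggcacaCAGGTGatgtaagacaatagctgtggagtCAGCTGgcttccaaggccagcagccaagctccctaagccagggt
Chrnb1, chr11:69795938-69796087: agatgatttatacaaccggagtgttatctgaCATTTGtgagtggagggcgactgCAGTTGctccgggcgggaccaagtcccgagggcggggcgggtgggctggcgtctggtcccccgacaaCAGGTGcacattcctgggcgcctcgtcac
Chrne, chr11:70619195-70619344: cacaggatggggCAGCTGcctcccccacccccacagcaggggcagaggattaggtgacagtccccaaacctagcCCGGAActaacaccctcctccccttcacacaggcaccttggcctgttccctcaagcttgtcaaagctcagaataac

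Promoter windows were found in RefSeq for 6 of the 8 members, with 7 windows in all since Runx1 had 2, and none was given for Chrnd and Ncam1. Searched on both strands over 250 bases upstream, the windows of Chrna1, Chrnb1, Chrng and Musk and the distal one of Runx1 held 3 E-boxes each, that of Chrne held 1 and the second one of Runx1 none. The motif stands in 66.2% of 32851 promoter windows of that length. The form CAGCTG, found in 13.0% of all windows, occurred in Chrna1, Chrng, Chrne and Musk, and not in the windows of Chrnb1 or Runx1. The N-box core, found in 12.03% of all windows, occurred in Chrne and in the second window of Runx1. No window of a member held the Runx cores TGTGGT (14.0% of all windows) or TGCGGT (5.10%), or the MEF2 (2.92%) or CArG (1.47%) motif. The whole windows of Chrng and the second one of Runx1 lay inside the annotated span of their gene. So did 233 of the 250 bases for Musk and 75 for the distal window of Runx1. These matches describe letters and are no evidence of binding.

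The beta subunit gene Chrnb1, on chromosome 11 of GRCm38 (chr11:69784036-69795943, minus strand, 2531 exon bases), was the receptor subunit with the highest level per kilobase of exon in each group. Its level was 3.32, 3.74 and 4.73 CPM in the 3 floxed mice and 9.48, 8.69 and 8.46 CPM in the 3 cKO mice. Every cKO heart was above every floxed heart, and the lowest cKO value was well clear of the highest floxed one. Chrnb1 rose by 1.18 on the log2 scale (SE 0.16), 2.26-fold, with an edgeR adjusted p of 0.00843 (quasi-likelihood test). Among the 15317 genes tested at P1, 4.64% were called, which required a more than 2-fold difference and an adjusted p below 0.05, and in 39.0% the groups did not overlap. The 3 members that passed the filter on low counts there were Chrnb1, Ncam1 and Runx1. Of these, 1 was called, Chrnb1, and 2 had groups without overlap, Chrnb1 and Runx1. DESeq2 gave a log2 fold change of 1.18 with an adjusted p of 7.33e-08. The call was lost without floxed replicate 1 (log2 fold change 1.06, edgeR adjusted p 0.0541). Without cKO replicate 4 it was kept (1.11, edgeR adjusted p 0.0202).

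In adult hearts Chrnb1 was at 8.75, 11.8 and 9.98 CPM in WT and at 8.37, 12.3 and 9.30 in KI/KI mice. The groups overlapped, and the log2 fold change was -0.02 (SE 0.18, edgeR adjusted p 0.966). The difference between the P1 and the adult effect was 1.20 on the log2 scale (SE 0.25), with an edgeR adjusted p of 0.0357 for the interaction over all 12 libraries, where 2.43% of 15729 genes were called on the adjusted p alone. DESeq2 gave 1.23 with an adjusted p of 0.000393. With each library left out in turn the difference ranged from 1.09 to 1.39 and the edgeR adjusted p from 0.0210 to 0.110. The call was kept without KI/KI replicate 5, floxed replicate 3 or cKO replicate 6 and was lost in the other 9 fits. It was also lost with a Y-linked covariate (1.14, edgeR adjusted p 0.0593) and with the replicate block (1.22, edgeR adjusted p 0.0989).

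Floxed hearts had less Chrnb1 than adult WT hearts, with no overlap. It fell by 1.37 on the log2 scale (SE 0.18, edgeR adjusted p 2.47e-04). Between these control groups 27.2% of 15183 genes were called and in 70.8% the groups did not overlap. The order of the group means was WT (10.2 ± 1.54 CPM), KI/KI (9.98 ± 2.03), cKO (8.88 ± 0.537) and floxed (3.93 ± 0.727). The first 3 lay within 1 SD of a neighbour and the floxed hearts stood below all of them. The genes whose pattern over the 12 hearts was nearest to that of Chrnb1, by root mean square difference of log2 levels centred on the gene's mean, were Capn12 (0.186) and Mafk (0.187) among 15740 genes.

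**Figure D1:**
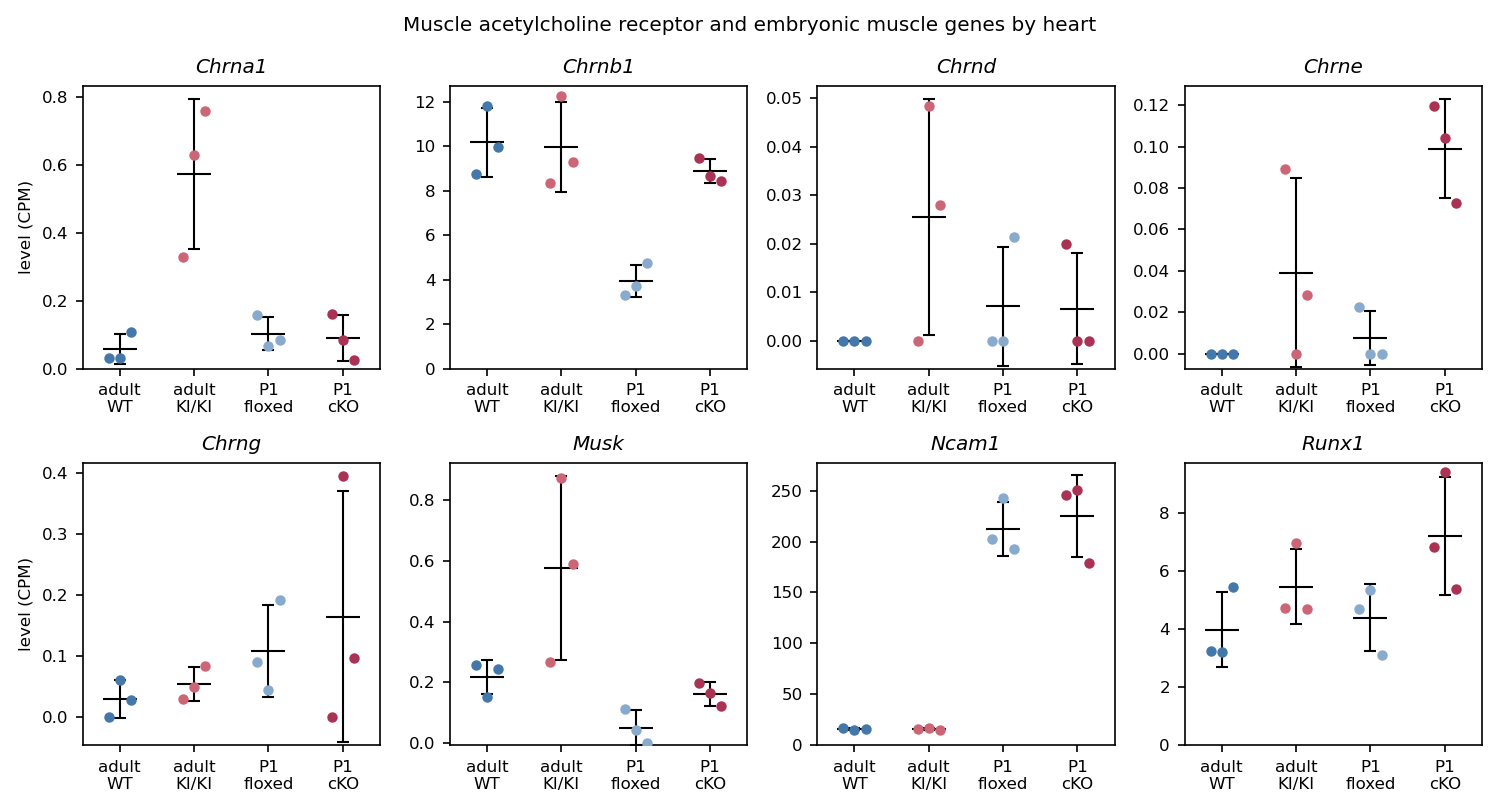
Level of each member in CPM (linear axes, scaled separately) in the 12 hearts, points in replicate order, with horizontal marks for the mean and bars for the SD of 3 mice. Chrnb1 is lower in the 3 floxed hearts (3.32 to 4.73) than in all others, Ncam1 is high in all 6 P1 hearts, and Chrna1 and Musk are highest in KI/KI hearts.

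The alpha subunit gene Chrna1, which carries the ligand-binding surface of the receptor (chr2:73563215-73580338, minus strand), was near the floor in most hearts. Its counts were 1, 1 and 4 in WT and 11, 26 and 27 in KI/KI hearts. Each KI/KI heart was above each WT heart. In 21.8% of the 14592 genes tested the adult groups did not overlap. The log2 fold change was 3.21 (SE 0.59) and the edgeR adjusted p was 0.181, so that it was not called, and 0.0% of the genes tested were called by edgeR in the adult comparison (2363 had an unadjusted p under 0.05). DESeq2 called Chrna1 at a log2 fold change of 3.28 and an adjusted p of 0.0118, where 1.08% of 14555 genes were called. A fit of all 12 libraries in edgeR also called it (adjusted p 0.0427), and with each library left out the edgeR adjusted p ran from 0.0513 to 0.518. Of the 4 members tested in adult hearts, Chrna1, Chrnb1, Ncam1 and Runx1, edgeR called 0, and 1 had groups without overlap, Chrna1. Chrna1 entered the test through the KI/KI hearts alone, since its WT counts were under the filter. Summed counts were 64 in KI/KI and 6 in WT hearts, a ratio of 9.71 after scaling for depth, with a 95% counting interval of 4.23 to 27.5.

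At P1 Chrna1 had 7, 3 and 4 counts in the floxed group and 8, 4 and 1 in the cKO group. The groups overlapped, Chrna1 was filtered out, and the ratio of summed counts was 0.915 (0.396 to 2.10). The difference between the P1 and the adult effect was -3.34 on the log2 scale (SE 0.98, edgeR adjusted p 0.0822). The adult WT mean of 0.0572 CPM and the P1 means of 0.103 and 0.0891 CPM lay within an SD of each other, and the KI/KI mean of 0.572 ± 0.221 stood above them.

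The other subunits were counted in so few reads that differences could be described only by counts. Chrnd, the delta subunit gene, had 5 counts in the whole series and was at 0 in 8 of the 12 libraries. No library exceeded 3 counts, so no fold change is given. Chrng, the fetal gamma subunit gene, had 0, 2 and 1 counts in WT hearts, 1, 2 and 3 in KI/KI, 4, 2 and 9 in floxed and 0, 19 and 4 in cKO hearts. The cKO values spanned those of all other groups, and the ratio of cKO to floxed summed counts was 1.51 (0.755 to 3.11). Its floxed to WT ratio was 3.67, with an interval from 1.04 to 19.8.

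Chrne, the adult epsilon subunit gene, had 0 counts in all 3 WT hearts and 3, 0 and 1 in KI/KI hearts. The floxed group had 1, 0 and 0 counts of it and the cKO group 6, 5 and 3. The cKO hearts were thus above the floxed ones without overlap, on sums of 14 and 1 counts. The ratio was 13.8 with an interval from 2.10 to 583, and the gene was filtered out of the edgeR test.

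Musk, which encodes the kinase that assembles the receptors under the nerve ending, had 8, 5 and 9 counts in WT and 9, 36 and 21 in KI/KI hearts. In CPM the KI/KI hearts lay above the WT hearts, by a narrow gap at the lowest KI/KI value (0.268 against 0.257). The ratio of summed counts was 2.73 (1.66 to 4.65), and the DESeq2 adjusted p was 0.272. The floxed group had 5, 2 and 0 counts of Musk and the cKO group 10, 8 and 5. These groups did not overlap in CPM, with a ratio of 3.24 (1.35 to 8.94). Floxed hearts lay below WT hearts, with a ratio of 0.233 (0.0842 to 0.565). Musk was filtered out of the 4 main edgeR fits, since too few of its libraries reached the count minimum, and with no filter edgeR called it in floxed against WT hearts.

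Ncam1, the neural cell adhesion molecule gene (chr9:49502136-49798925, minus strand), carries the fetal marker of the muscle fibre membrane. It was at 16.6, 14.9 and 16.2 CPM in WT hearts and at 15.4, 17.0 and 14.95 in KI/KI hearts. The 3 floxed mice had 202, 242 and 192 CPM and the 3 cKO mice 246, 251 and 179 CPM. The P1 hearts lay above the adult hearts without overlap, and within each age the groups overlapped. Between floxed and WT hearts the log2 fold change was 3.75 (SE 0.11), 13.4-fold, with an edgeR adjusted p of 3.11e-07. The log2 fold change was 0.09 (SE 0.16, edgeR adjusted p 0.738) in cKO hearts and -0.005 (SE 0.086, edgeR adjusted p 0.982) in KI/KI hearts. The antisense gene Gm11149 shares 417 exon bases with Ncam1, 4.81% of its exon length, and averaged 0.0395 CPM, and the strand setting of the counting is not given in the sources used here.

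Runx1, which encodes a transcription factor that rises in denervated muscle (chr16:92601466-92826149, minus strand), was at 3.25, 3.21 and 5.47 CPM in WT and at 4.74, 6.97 and 4.69 in KI/KI hearts. The groups overlapped through WT replicate 3, and the log2 fold change was 0.46 (SE 0.27, edgeR adjusted p 0.422). The 3 floxed mice had 4.69, 5.37 and 3.11 CPM and the 3 cKO mice 6.83, 9.42 and 5.395 CPM. The cKO hearts were above the floxed hearts by a narrow gap, and the log2 fold change was 0.72 (SE 0.28). The adjusted p was 0.117 with edgeR and 0.0618 with DESeq2, so that Runx1 was not called. Floxed and WT hearts differed by 0.13 on the log2 scale (SE 0.28, edgeR adjusted p 0.705).

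**Figure D2:**
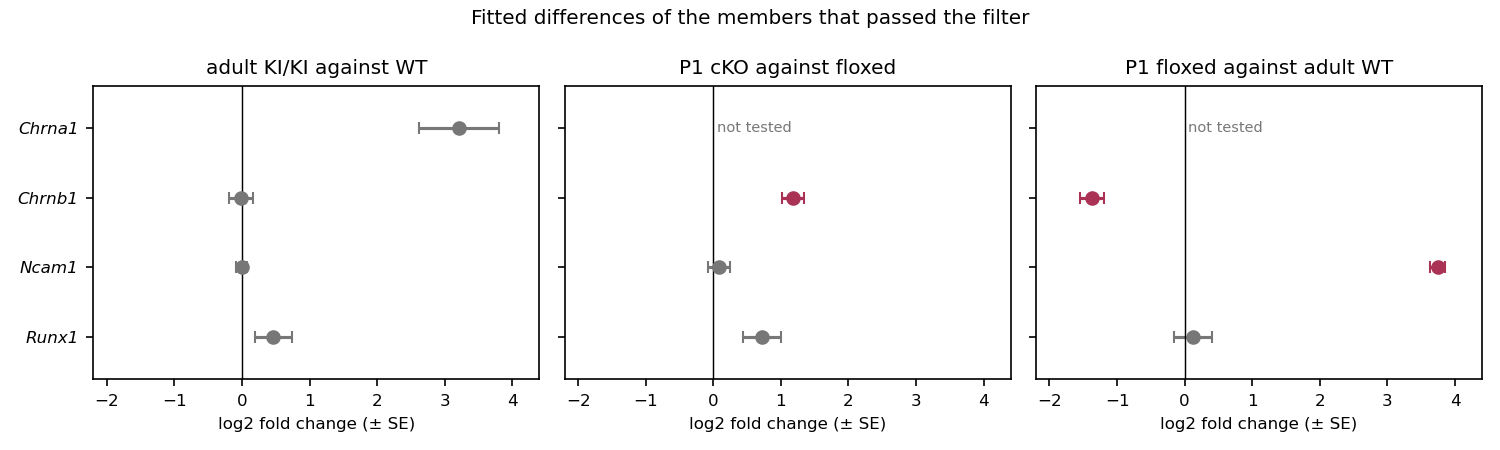
Log2 fold change with its SE, from edgeR, of the 4 members that passed the filter in at least 1 of 3 comparisons, in red where called. Chrnb1 is called higher in cKO hearts (1.18) and lower in floxed than in WT hearts, Ncam1 is called higher in floxed hearts (3.75), and no member is called in KI/KI hearts.

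Per kilobase of exon, Chrnb1 was at 4.02 ± 0.610 CPM in WT hearts and at 3.51 ± 0.212 in cKO hearts. Chrna1 reached 0.130 ± 0.0504 CPM per kilobase in KI/KI hearts and Musk 0.153 ± 0.0799. Chrm2, named for comparison as the main cardiac receptor of acetylcholine, was at 21.7 ± 3.05 CPM per kilobase in WT hearts. Among the other receptors of acetylcholine, 1 of the 10 tested at P1 was called, beside 4.64% of all genes tested. This was the nicotinic subunit gene Chrnb4, which was lower in cKO hearts (log2 fold change -2.29, SE 0.61, edgeR adjusted p 0.0435) on 13 against 64 summed counts. It passed the filter only through the floxed hearts, where it had from 13 to 29 counts, beside 2 to 9 in cKO hearts. None of the 5 tested was called in adult hearts by edgeR or DESeq2.

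Of 16 other genes of the neuromuscular synapse, all were tested in both models. At P1 edgeR called 3 of them higher and 0 lower, against 4.64% of all genes. Etv4, an ETS-family transcription factor gene, rose by 2.06 on the log2 scale (SE 0.20, edgeR adjusted p 0.00502), from 4.38 ± 0.810 to 18.3 ± 3.53 CPM. Its relative Etv5 rose by 1.15 (SE 0.17, edgeR adjusted p 0.00945). Nrg1, which encodes the ErbB ligand neuregulin, rose by 3.02 (SE 0.56, edgeR adjusted p 0.0174), from 1.95 ± 0.717 to 15.7 ± 8.74 CPM. The anchor of the receptor, Rapsn, was at 10.7 ± 1.84 CPM in floxed and 8.20 ± 3.44 CPM in cKO hearts, with overlap, and was not called. The median log2 fold change of the 16 genes was 0.04, beside -0.004 over all genes tested. In adult hearts edgeR called none of the 16, with a median of -0.03, and DESeq2 called Nrg1 higher (log2 fold change 2.22, adjusted p 2.12e-04). Nrg1 was at 1.02 ± 0.301 CPM in WT and 4.78 ± 2.76 CPM in KI/KI hearts. Rapsn was at 13.7 ± 1.18 CPM in WT and 9.90 ± 1.20 CPM in KI/KI hearts, with no overlap and a log2 fold change of -0.47 (SE 0.11). Its adjusted p was 0.208 with edgeR and 0.0324 with DESeq2, and it was under the 2-fold threshold.

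**Figure D3:**
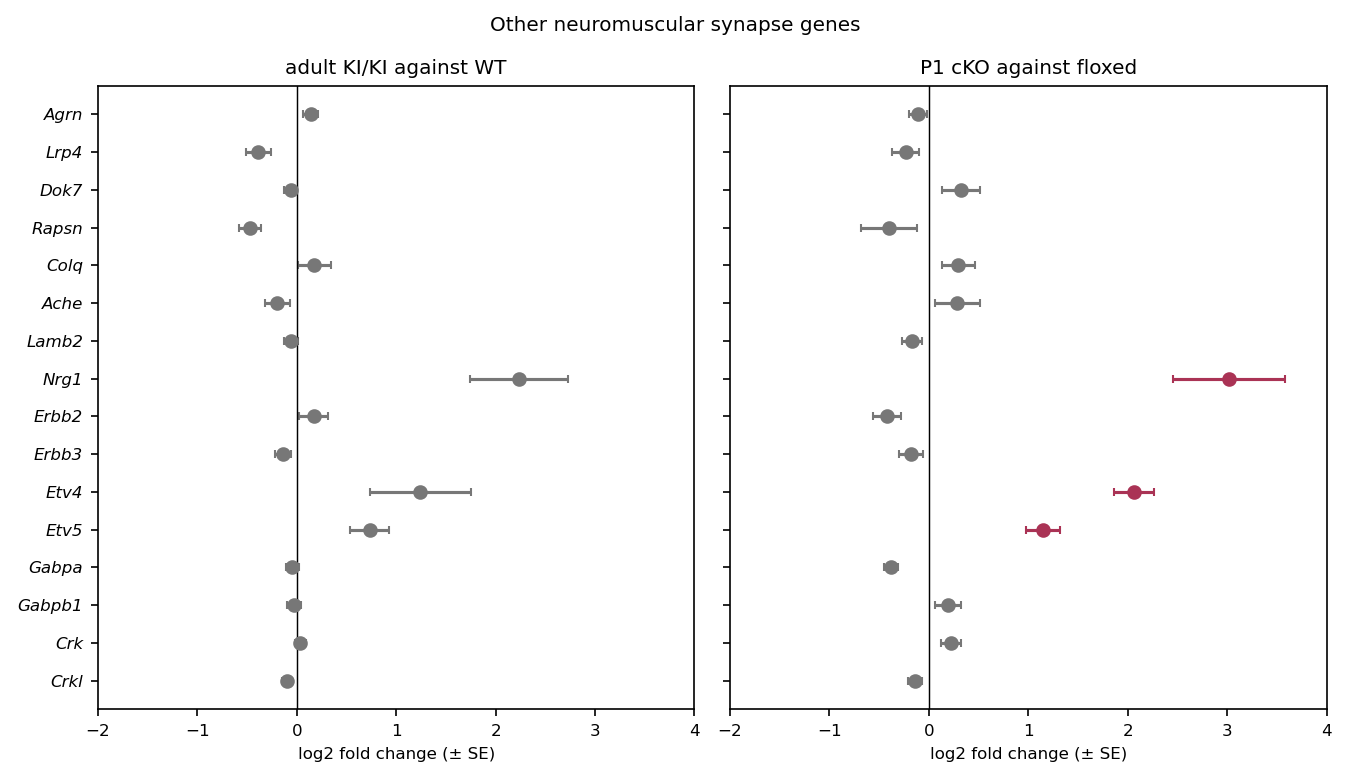
Log2 fold change with its SE, from edgeR, of the 16 other neuromuscular synapse genes in adult KI/KI hearts (left) and P1 cKO hearts (right), with called genes in red. Etv4, Etv5 and Nrg1 are called at P1, and none is called in adult hearts.

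Of 16 other genes of embryonic or denervated muscle, 14 were in the table and 8 were tested at P1. Nes, which encodes the intermediate filament nestin, was the 1 gene called, beside 4.64% of all genes tested. Nes was higher by 1.09 on the log2 scale in cKO hearts (SE 0.17, edgeR adjusted p 0.0114). The difference of its effect between the models was 1.18 (SE 0.24, edgeR adjusted p 0.0327), where 2.43% of 15729 genes were called. Whether that call held with a library left out was not tested. The perinatal myosin gene Myh8 was at 9.09 ± 3.27 CPM in floxed and 15.8 ± 5.14 CPM in cKO hearts and was not called at P1. In adult hearts it was at 0.389 ± 0.136 CPM in WT and 1.64 ± 0.981 CPM in KI/KI hearts, with an adjusted p of 0.231 from edgeR and 0.0135 from DESeq2. The MyoD family was near 0. Myog had at most 15 counts in any heart, and Myod1 at most 3. Among the 5 tested relatives and partners of Runx1 and Ncam1, edgeR called none in either mutant.

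Markers of other cells moved beside Chrnb1. The summed level of 15 fast skeletal muscle markers ran from 91.1 to 132 CPM in floxed and from 204 to 406 in cKO hearts. Of 12 tested, edgeR called 2 higher, Casq1 and Myh1, and 1 lower, Tnni2, at P1, beside 4.64% of all genes. The largest share came from Casq1, which encodes the calcium-binding protein calsequestrin 1, at 59.0 ± 12.5 and 213 ± 85.5 CPM. Myh1, a fast myosin gene, had from 5 to 15 counts in floxed and from 25 to 58 in cKO hearts and passed the filter through the cKO hearts, with a log2 fold change of 2.01 (SE 0.46, edgeR adjusted p 0.0305). Tnni2, the fast troponin I gene, was at 2.19 ± 0.449 CPM in floxed and 0.926 ± 0.376 CPM in cKO hearts (log2 fold change -1.22, SE 0.33, edgeR adjusted p 0.0485). The fast myosin gene Myh4 had from 2 to 5 counts in floxed and from 1 to 2 in cKO hearts. No fast skeletal marker was at 0 in all hearts. Blood and immune markers summed to between 91.2 and 94.8 CPM in floxed and between 127 and 137 in cKO hearts, fibroblast markers to between 6285 and 7087 and between 8403 and 9269. The fibroblast markers did not all move alike. Of 8 tested, 5 had a log2 fold change above 0, and edgeR called 1, Tcf21, higher (1.05, SE 0.27, edgeR adjusted p 0.0394). Schwann cell markers, of which edgeR called 2 of 6 lower, summed to between 20.5 and 53.5 CPM and between 12.2 and 21.5. Autonomic neuron markers summed to between 11.6 and 21.6 CPM in floxed and between 7.13 and 13.3 in cKO hearts. Of 8 tested, 0 had a log2 fold change above 0, and edgeR called 1 lower, beside 4.64% of all genes. In 3 of them the groups did not overlap, beside 39.0% of all genes tested. The called gene was Th (log2 fold change -3.17, SE 0.71, edgeR adjusted p 0.0232), on 9 against 83 summed counts. Th passed the filter only through the floxed hearts, with 17 to 39 counts, beside 0 to 7 in cKO hearts. Cardiomyocyte markers summed to between 52833 and 60379 CPM and between 48277 and 53927. This overlapping sum held markers that differed in both directions. In 5 of the 10 tested the groups did not overlap, beside 39.0% of all genes tested. EdgeR called 1 higher, Nppa (log2 fold change 1.95, SE 0.42, edgeR adjusted p 0.0249), and 1 lower, Pln (-1.095, SE 0.15, edgeR adjusted p 0.00825). Their part in the result was not tested.

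In adult hearts, beside Chrna1, fast skeletal markers summed to between 179 and 210 CPM in WT and between 142 and 209 in KI/KI hearts. This overlapping sum held markers that differed in both directions. Of 11 tested, edgeR called 0, and DESeq2 called 1 higher and 3 lower, beside 1.08% of all genes, each with no overlap between the groups. The higher one was the calcium release channel gene Ryr1, with a DESeq2 log2 fold change of 2.01 (adjusted p 0.00139). The lower ones were the calcium pump gene Atp2a1 (-1.73, DESeq2 adjusted p 1.15e-05), Casq1 (-1.22, DESeq2 adjusted p 7.10e-05) and Tnni2 (-1.61, DESeq2 adjusted p 0.0111). Myh4 had 130 counts in WT replicate 3 and at most 5 in each other heart. Fibroblast markers summed to between 1998 and 2403 CPM and between 2436 and 4755, and blood and immune markers to between 159 and 268 and between 266 and 332. Autonomic neuron markers summed to between 16.1 and 18.2 CPM in WT and between 8.43 and 13.0 in KI/KI hearts, with no overlap. The marker called by DESeq2 was Dbh, the noradrenaline-synthesis enzyme gene, at 9.08 ± 2.08 and 2.75 ± 1.78 CPM, with no overlap and an adjusted p of 0.203 with edgeR and 0.00297 with DESeq2. Of the 5 neuron markers tested, Dbh was the only 1 whose groups did not overlap, beside 21.8% of all genes tested. Among these 5, 1 had a log2 fold change above 0. The next highest marker, Stmn2, was at 6.49 ± 1.11 CPM in WT and 6.17 ± 0.533 CPM in KI/KI hearts, with overlap. Schwann cell markers summed to between 34.4 and 54.0 CPM and between 32.9 and 45.4, and cardiomyocyte markers to between 86306 and 96303 and between 70398 and 86478. Their part in the result was not tested.

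**Figure D4:**
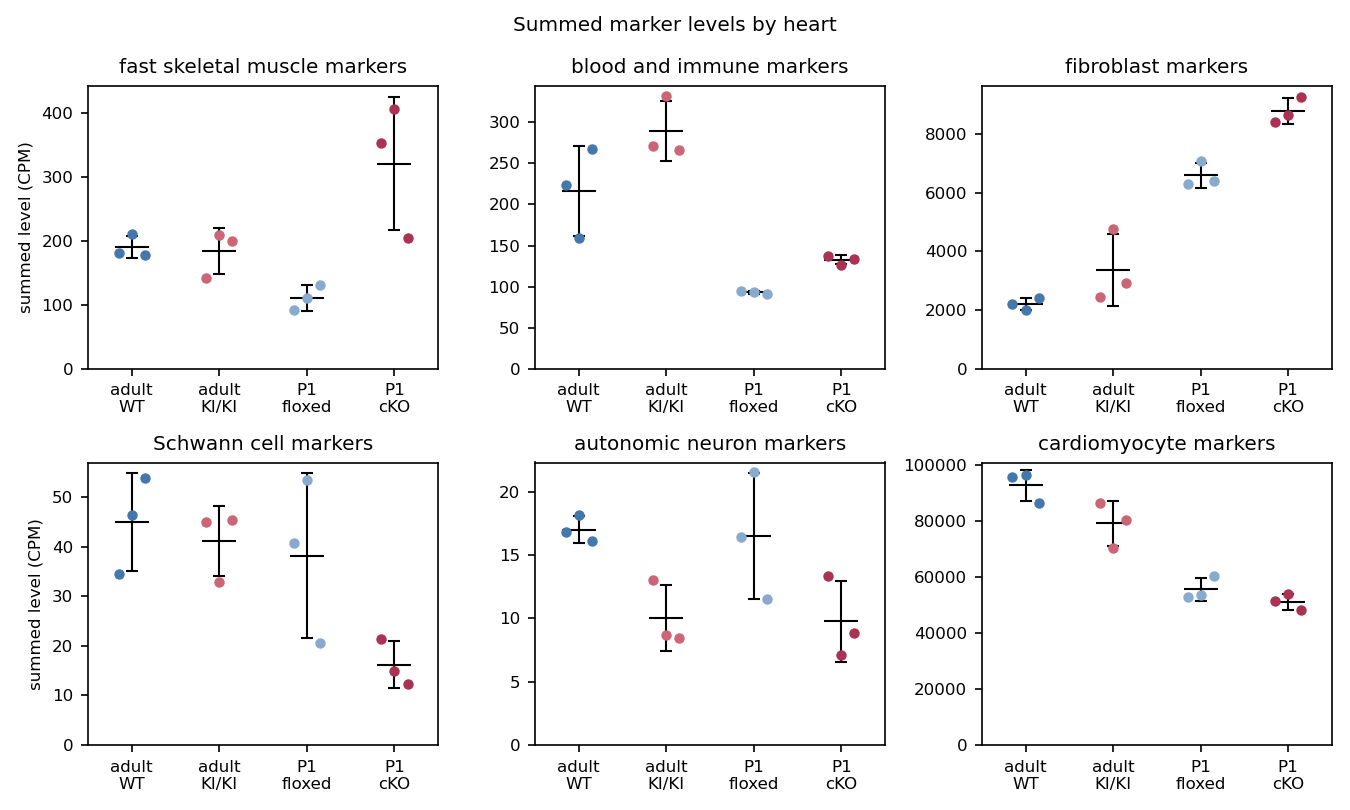
Summed CPM of the markers of 6 cell types in the 12 hearts, with the mean and SD of 3 mice per group. At P1 the fast skeletal, blood and immune and fibroblast sums lie higher in cKO than in floxed hearts without overlap, and the Schwann cell, neuron and cardiomyocyte sums overlap. Of those tested at P1, 9 of 12 fast skeletal, 8 of 8 blood and immune and 5 of 8 fibroblast markers had a log2 fold change above 0. So did 0 of 6 Schwann cell, 0 of 8 neuron and 4 of 10 cardiomyocyte markers.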

How the data were processed

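RNA-Seq of whole hearts covered 12 mice in 4 groups of 3. The authors used Trim Galore for trimming, STAR 2.7.2b for alignment to mm10 and HTSeq for counting, and deposited whole-number counts per gene symbol without normalization. The strand setting is not given in the sources used here.

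The counts were fitted by edgeR 4.0.16 under R 4.3.3 (TMM, filterByExpr with its minimum count of 10, quasi-likelihood test with robust dispersion, Benjamini-Hochberg adjustment over all genes tested). Each comparison used its own 6 libraries, and the difference between models used all 12. A call needed an adjusted p below 0.05 and more than 2-fold, or the adjusted p alone for the difference. DESeq2 1.42.0 was the main alternative. The others were RLE size factors, other filters, all libraries in one fit, a dispersion without the robust step, no fold threshold, a Y-linked covariate, a replicate block and each library left out. A legacy dispersion was added after seeing the data. The scripts were tested on simulated counts.

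Members and lists were chosen with earlier results of these data known. Named genes are the members, up to 3 called genes per list and comparison, and the 2 genes nearest to a called member. Rapsn, Myh8, Myog, Myod1, Myh4, Chrm2 and, in adult hearts, Nrg1, Ryr1, Atp2a1, Casq1, Tnni2, Dbh and Stmn2 were named after their values were seen. Count ratios have exact 95% intervals. Positions come from GENCODE M21 (GRCm38). Replicate numbers did not pair the samples: deviations of same-numbered hearts correlated from -0.537 to 0.212.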

Additional observations from a re-analysis of the deposited data

Results flagged for a closer look

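The effect on Chrnb1 differed between the models, by 1.20 on the log2 scale, in edgeR's test of the interaction over all 12 libraries (SE 0.25, adjusted p 0.0357). The call was not stable. With a library left out it was kept in 3 of 12 fits (edgeR adjusted p 0.0210 to 0.110), and it was lost with the Y-linked covariate. It was also lost with the replicate block, but replicate numbers did not pair the samples, so that fit cannot bear on stability. Chrnb1 was higher in 3 of 3 cKO hearts than in every floxed heart, while WT and KI/KI hearts overlapped. The models differ in age, mouse line and allele, which cannot be told apart here.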

How the results depend on the processing

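The number of members called in KI/KI hearts rose from 0 to 1, Chrna1, with DESeq2 and with all 12 libraries in one edgeR fit. At P1 it was 1 and fell to 0 without floxed replicate 1 (range 0 to 1). For the difference between models it was 1 and fell to 0 with the Y-linked covariate (Chrnb1 1.14, edgeR adjusted p 0.0593). With a library left out it stayed at 1 in 3 of 12 fits and was 0 in the rest. With the replicate block it was 0 (Chrnb1 1.22, edgeR adjusted p 0.0989), and the block changed no other call. With no filter the number called between floxed and WT hearts was 3 rather than 2, Musk being added. No paired analysis was possible within a model because WT and KI/KI, and floxed and cKO, mice share no replicate number.

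Values near 0 changed sign. With each library left out, the KI/KI log2 fold change ranged from -0.065 to 0.033 for Ncam1 and from -0.20 to 0.094 for Chrnb1, that of Runx1 between floxed and WT hearts from -0.035 to 0.43, and its difference between models from -0.045 to 0.49. With the Y-linked covariate Ncam1 was at -0.012 in cKO hearts and Runx1 at -0.21 between floxed and WT hearts. The cause was not tested. Of 123 single-member values under other alternatives, 117 kept direction and call, and of 108 with a library left out, 88 did. Chrna1 had no value where at least 10 counts in every library were required. Depth limits Chrnd, Chrne, Chrng and Musk, which the 4 main edgeR fits did not test.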
